A study of Mus musculus with 6 samples.

Results

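Granule proteases and cytotoxic genes were followed in mouse leukemia cells that carry AE9a, a shortened splice product of AML1-ETO, the leukemia fusion that joins the DNA-binding part of RUNX1 to ETO. The 9 genes were chosen by symbol for their known roles. They are Mpo, Elane, Prtn3 and Ctsg, whose products fill azurophil granules, and Gzmb, Gzma, Gzmc, Prf1 and Nkg7, whose products belong to cytotoxic granules. All 9 are among the 21881 genes that both deposited tables list. RNA-seq had been run on CBD cells (15 µM for 16 h), 4-OHT cells (4-hydroxytamoxifen, 0.1 µM for 48 h) and control cells, with 2 samples in each of the 3 groups. Cells of all groups carry AE9a, Id1 alleles flanked by loxP sites and CreER, a Cre recombinase that 4-OHT switches on, and the labelled strain background is C57/B6X129SV. CBD is described by the submitters as acting against Id1, and its abbreviation is not spelled out. The labels name no vehicle for the controls, list no 4-OHT arm without loxP sites, and leave unstated if samples sharing a group came from separate cultures. Each table gives 1 FPKM value (fragments mapped, scaled to transcript length and library size) for the treated group and 1 for a control of its own, so no SD can be set beside a value and the depth is unknown. A gene "rose" or "fell" below where the authors' deposited q (their Cuffdiff p adjusted over all tested genes) is under 0.05. Of the 2 control samples, 1 is described with the comparison to CBD and 1 with that to 4-OHT. Which of them stand behind each control value is not stated, so a q may rest on 1 control sample. Log2 folds are those of treated over control after 0.1 FPKM was added to each, which understates the change of low genes.

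Azurophil granules are the first granules that a developing neutrophil makes, at the promyelocyte stage, and they store myeloperoxidase together with the serine proteases neutrophil elastase, proteinase 3 and cathepsin G. Cytotoxic granules of T and natural killer (NK) cells hold perforin, which opens the membrane of a target cell, and granzymes, serine proteases that enter through it. The serine proteases of both sets are packed on serglycin and activated by cathepsin C. Mouse mast cells are known to store cathepsin G and granzyme B as well. On mouse chromosome 14 the genes of cathepsin G, of most granzymes and of the mast cell chymases stand side by side.

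The 250 bases before the RefSeq start of 4 of the genes (build GRCm38.p6) are printed here, because RUNX1 is the DNA-binding part of the fusion that drives these cells. They belong to the 3 members that reached 1 FPKM in any column and, for contrast, to Mpo. Capitals mark TGTGGT or its reverse complement ACCACA, the letters of a RUNX site.
Gzmb, chr14:56262335-56262584, minus strand: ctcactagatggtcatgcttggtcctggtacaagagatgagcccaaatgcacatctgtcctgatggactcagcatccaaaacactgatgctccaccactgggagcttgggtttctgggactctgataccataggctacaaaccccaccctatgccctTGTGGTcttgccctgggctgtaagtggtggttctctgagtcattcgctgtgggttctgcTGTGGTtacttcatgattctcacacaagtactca
Ctsg, chr14:56102575-56102824, minus strand: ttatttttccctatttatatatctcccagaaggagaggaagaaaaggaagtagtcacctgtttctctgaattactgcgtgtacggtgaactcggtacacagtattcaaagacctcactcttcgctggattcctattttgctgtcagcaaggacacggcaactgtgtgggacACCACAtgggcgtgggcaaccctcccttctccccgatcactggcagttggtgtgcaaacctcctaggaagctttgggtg
Nkg7, chr7:43436888-43437137, plus strand: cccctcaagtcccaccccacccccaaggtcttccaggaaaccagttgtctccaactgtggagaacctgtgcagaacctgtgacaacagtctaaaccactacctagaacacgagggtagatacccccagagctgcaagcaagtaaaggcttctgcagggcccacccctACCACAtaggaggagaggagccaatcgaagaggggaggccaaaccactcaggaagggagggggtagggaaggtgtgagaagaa
Mpo, chr11:87793534-87793783, plus strand: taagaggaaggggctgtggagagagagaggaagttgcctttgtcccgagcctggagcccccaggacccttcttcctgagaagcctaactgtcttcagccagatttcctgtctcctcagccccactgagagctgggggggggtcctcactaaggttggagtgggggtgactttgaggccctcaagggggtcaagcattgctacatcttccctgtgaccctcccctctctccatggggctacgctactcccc
The RUNX letters occurred in 6 of the 9 members' windows, namely those of Ctsg, Gzmb, Gzma, Gzmc, Prf1 and Nkg7, and in 14.05% of all 32851 mouse promoter windows of this length. Gzma and Prf1 are listed at 0 FPKM in all 4 columns and Gzmc stayed under 1 FPKM. The letters were thus not confined to the members printed here that reached 1 FPKM. Gzmb held 2 matches, which begin 93 and 34 bases before the start. Ctsg held 1, at 79 bases, and Nkg7 held 1, at 83 bases. The E-box letters CANNTG, bound by the E proteins that Id1 keeps off DNA, were in 6 of 9 windows and in 66.2% of all promoters. One of the 4 E-box matches of Ctsg, at 77 bases, overlaps its RUNX match. The AP-1 letters TGANTCA were in the Gzmb window alone of the 9, at 58 bases, and in 6.75% of all promoters. GACGTCA, part of the cyclic AMP response element, was in Gzmc alone of the 9 and in 2.78% of all promoters. GAGGAA, letters of an ETS site, was in 4 of 9 (Mpo, Elane, Prtn3 and Ctsg) and in 23.25% of all promoters. The GATA letters TGATAA and AGATAA were in 0 of 9 windows, against 7.94% and 9.99% of all promoters. All motifs were read on both strands, and a match is a description of the letters in this window.

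Of the 9 genes, 2 stood at 10 FPKM or more in all 4 columns, 6 stayed under 1 FPKM in all 4, and 3 of those 6 are listed at 0 throughout. The expressed pair was Gzmb and Nkg7. Gzmb lay above 88.2% of the 10867 genes tested in both tables in the CBD column and above 47.6% in its control, and above 40.9% in the 4-OHT column and 65.1% in its control. Nkg7 lay above 88.9% of them in the CBD column and 64.0% in its control, and above 57.7% in the 4-OHT column and 49.2% in its control. The azurophil genes were low: the highest value of Mpo, Elane and Prtn3 in any column was 0.208 FPKM. The authors' test covered 4 members with CBD (Ctsg, Gzmb, Gzmc and Nkg7) and 3 with 4-OHT (Ctsg, Gzmb and Nkg7). The 5 and 6 others were marked as not tested, which leaves no statement on change for them.

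**Figure D1:**
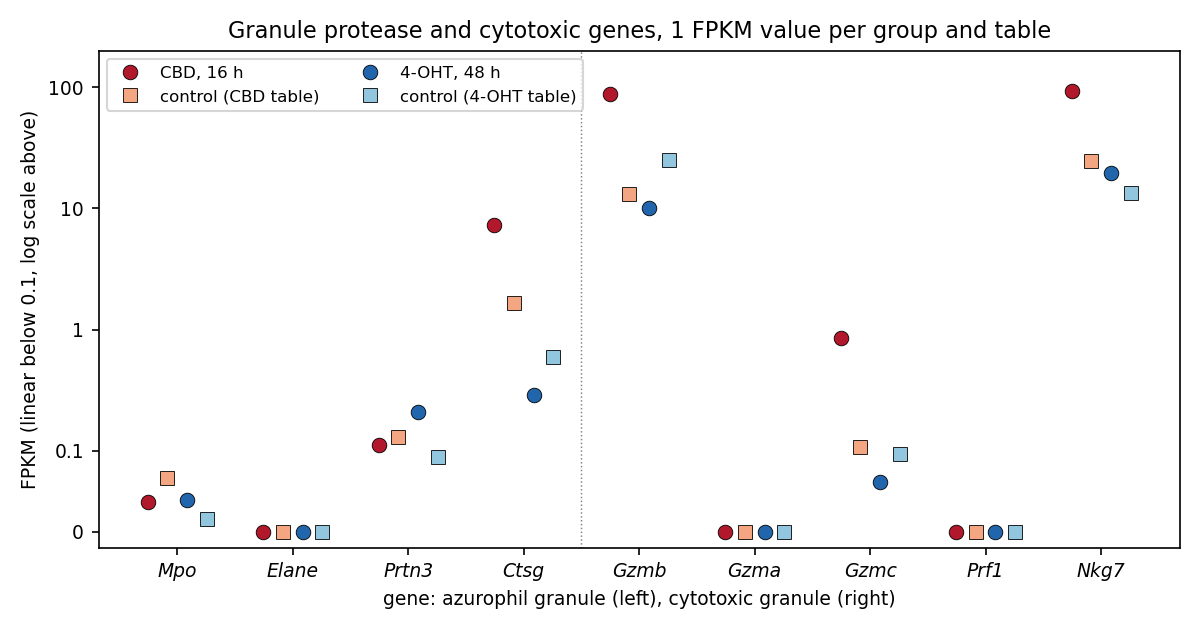
FPKM of the 9 genes (y axis, linear below 0.1 and logarithmic above) in the CBD, CBD-table control, 4-OHT and 4-OHT-table control columns, 1 value each. Gzmb and Nkg7 stand at 10 FPKM or more in every column and highest with CBD, at 87.2 and 93.6, and Elane, Gzma and Prf1 are listed at 0.

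Markers of other cell types moved in the CBD column as well. Of 20 brain cell markers 18 rose, with a sum of 537 FPKM in CBD cells, against 62.8 in their control. Of the 20, 17 stood under 1 FPKM in that control and 0 in CBD cells, and the median log2 fold was 6.23. Mbp alone was at 38.6 FPKM in that control. Over all tested genes 18.4% rose with CBD. Of 13 tested monocyte and macrophage markers 6 rose, and that list of 17 summed to 48.9 FPKM in CBD cells, against 13.06. In 4-OHT cells the sums were 40.3 FPKM for brain markers, against 45.1, and 9.79 for the monocyte list, against 10.96. Their part in the CBD results on granule genes was not tested.

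Mpo, the peroxidase that makes hypochlorous acid, was at 0.0365 FPKM in CBD cells and 0.0662 in their control, and at 0.0386 in 4-OHT cells and 0.0151 in theirs. Prtn3, proteinase 3, was at 0.112 FPKM in CBD cells and 0.131 in their control, and at 0.208 in 4-OHT cells and 0.0921 in theirs. Elane, neutrophil elastase, is listed at 0 in all 4 columns. A listed 0 need not be a measurement. Vamp7, a widely used vesicle fusion gene, is at 0 in all 4 columns and is placed on the sequence X_random. The elongation factor gene Eef1a1 is at 0 in both columns of the CBD table, with the status HIDATA. Elane has neither of these features. It lies on chromosome 10, is marked as not tested, and 0 of the 949 stretches of 36 bases in its transcripts (GENCODE vM21) occur in other genes. In mm9 Prtn3 (chr10:79342412-79345917) and Elane (chr10:79349057-79350961) are neighbours, and Mpo lies at chr11:87607286-87617914.

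Ctsg, cathepsin G, was the azurophil gene with a measurable level, at 7.32 FPKM in CBD cells, against 1.64 in their control, and at 0.292 FPKM in 4-OHT cells, against 0.599 in theirs. The highest value is that of CBD cells and the lowest that of 4-OHT cells. The log2 fold was 2.09 with CBD (q = 0.0550 in the authors' deposited table, from an unadjusted p = 0.0147) and −0.84 with 4-OHT (q = 0.192 in the authors' deposited table for 4-OHT), and neither passed. The control columns differ from each other by a log2 ratio of 1.32 for this gene, CBD-table control over 4-OHT-table control. Ctsg lies at chr14:56718718-56721411 in mm9.

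Gzmb, granzyme B, which cleaves caspases and other proteins after aspartate, rose to 87.2 FPKM in CBD cells, against 13.04 in their control. It fell to 10.05 FPKM in 4-OHT cells, against 25.3 in theirs. The log2 folds were 2.73 and −1.32, and the authors' deposited tables list both q values as 0. The order of the columns was CBD, 4-OHT-table control, CBD-table control and 4-OHT, and with no spread per group it cannot be said which neighbours in that order differ. The CBD value exceeded both controls, with a log2 ratio of 1.78 against the control of the other table. The 4-OHT value lay below both, with a log2 ratio of −0.37 against the control of the other table. These cross-table ratios were not tested, since the tables were made separately. Fewer cells that make an RNA and less RNA per cell cannot be told apart in bulk samples, here and below. Gzmb lies at chr14:56877695-56881097 in mm9.

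Nkg7, a granule membrane protein needed for the release of cytotoxic granules in mice, rose to 93.6 FPKM in CBD cells, against 24.5 in their control (log2 fold 1.93, q = 5.37e-09 in the authors' deposited table). With 4-OHT it rose to 19.5 FPKM, against 13.4 in its own control (log2 fold 0.53, q = 4.28e-05 in the authors' deposited table), yet it lay below the control of the other table, at 24.5 FPKM, where the log2 ratio is −0.33. The CBD value exceeded both controls, by a log2 ratio of 2.79 against the control of the 4-OHT table. The control columns differ by a log2 ratio of 0.86 for Nkg7, which is more than its fold with 4-OHT. The gene lies at chr7:50692508-50693616 in mm9.

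Gzmc, granzyme C, reached 0.857 FPKM in CBD cells, against 0.107 in their control (q = 0.0859 in the authors' deposited table, from an unadjusted p = 0.0260), and did not pass. In 4-OHT cells it stood at 0.0620 FPKM, against 0.0967 in their control, and was not tested. Reads of this gene are uncertain: 103 of the 859 stretches of 36 bases in its transcripts (GENCODE vM21) also occur in other genes, against 14 of 1401 for Gzmb and 0 for Ctsg and Nkg7. It lies at chr14:56850238-56853493 in mm9. Gzma, granzyme A, and Prf1, perforin, are listed at 0 in all 4 columns, at chr13:113884035-113891189 and chr10:60760584-60767011 in mm9. So of a cytotoxic set, the granzyme B and Nkg7 transcripts stood between 10.05 and 93.6 FPKM, while perforin and granzyme A were listed at 0.

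In counts, 2 of the 4 members tested with CBD rose (18.4% of all 13751 tested genes did) and 0 fell (7.74% of all tested genes). At an unadjusted Cuffdiff p under 0.05 all 4 were higher and 0 lower. The share of all tested genes at that unadjusted threshold was not computed. Counts at it, here and below, therefore have no share to be read against. Both that rose also exceeded the other table's control, as did 18.1% of all tested genes, and 0 members fell against both controls, as did 7.23% of all tested genes. With 4-OHT 1 of the 3 tested members rose (27.2% of all 11232 tested genes) and 1 fell (16.9%). Of these the fall, of Gzmb, also held against the other table's control (5.89% of all tested genes fell against both), and the rise, of Nkg7, did not (13.9% rose against both). Among 9481 genes tested in both tables and at 1 FPKM or more in both controls, 8.98% differed at least 2-fold between the controls. Over all tested genes the log2 fold had a median of 0.29 with CBD and 0.05 with 4-OHT.

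**Figure D2:**
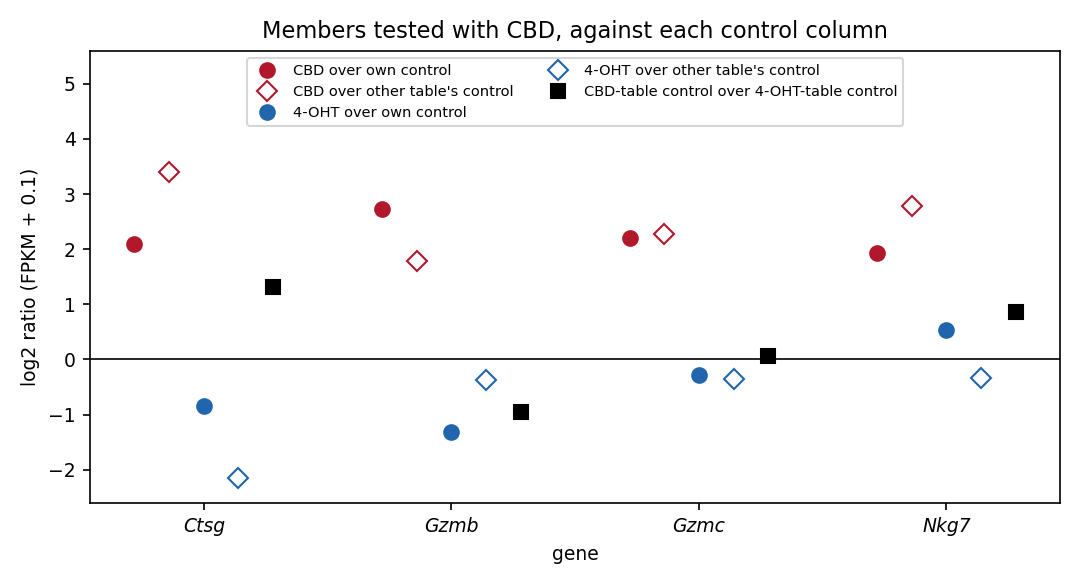
Log2 ratios (FPKM + 0.1; y axis) of the 4 members tested with CBD: circles for each treatment over its own control, open diamonds over the other table's control, and black squares for the CBD-table control over the 4-OHT-table control. All 8 CBD ratios are above 0, and Nkg7 is the only one of the 4 whose 4-OHT ratio changes sign between controls. Gzmc was not tested with 4-OHT.

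Id1, the gene that 4-OHT deletes here, checks the labels: it fell to 0.741 FPKM in 4-OHT cells, against 15.4 in their control (the authors' deposited table lists q as 0). It was at 11.95 FPKM in CBD cells, against 34.2 in their control, which did not pass (q = 0.133 in the authors' deposited table). Kit, the stem cell factor receptor of blasts and mast cells, stood between 75.0 and 95.6 FPKM in the 4 columns. Ptprc, which encodes the leukocyte antigen CD45, stood between 0.0466 and 0.417 FPKM.

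Position set Gzmb, Gzmc and Ctsg together. In mm9 they belong to a run of 16 genes over 321 kb of chromosome 14 that begins with Cma1 and ends with Gzmb, and holds chymases, other granzymes and Mcpt8. With CBD 10 of the 16 were tested, 3 rose and 0 fell (5 and 0 at an unadjusted Cuffdiff p under 0.05), and the median log2 fold was 1.96. Among all tested genes 18.4% rose and 7.74% fell with CBD. The 3 were Gzmb, Cma1 and Mcpt8, at the ends and in the middle of the run. All 3 also exceeded the other table's control (18.1% of all tested genes rose against both). Mcpt1, Mcpt2 and Mcpt4 were above their own control with CBD without passing. They lay below the other table's control, at log2 ratios of −1.06, −0.87 and −1.01. With 4-OHT 9 were tested, 6 fell and 0 rose (6 and 0 at an unadjusted Cuffdiff p under 0.05), and the median log2 fold was −1.16. The 6 were Cma1, Mcpt1, Mcpt2, Mcpt4, Mcpt8 and Gzmb. Only Cma1, Mcpt8 and Gzmb, 3 of these 6, also lay below the other table's control. Among all tested genes 16.9% fell with 4-OHT, and 5.89% fell against both controls.

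Cma1, which encodes mast cell protease 5, of connective tissue mast cells, rose to 211 FPKM in CBD cells, against 34.5 in their control (log2 fold 2.61). It fell to 24.2 FPKM in 4-OHT cells, against 66.3 in theirs (log2 fold −1.45), and the authors' deposited tables list both q values as 0. Mcpt8, a protease of basophils, rose to 30.8 FPKM in CBD cells, against 1.85 in their control (log2 fold 3.99, q = 2.83e-12 in the authors' deposited table). It fell to 0.842 FPKM in 4-OHT cells, against 3.80 in theirs (log2 fold −2.05, q = 8.67e-08 in the authors' deposited table). Gzmb, Cma1 and Mcpt8 thus had their highest value with CBD and their lowest with 4-OHT, as had Ctsg, which did not pass.

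The mucosal mast cell protease gene Mcpt1 fell to 2.94 FPKM in 4-OHT cells, against 11.1 in their control, but the other table's control holds 1.58 FPKM. Mcpt2, at 4.39 FPKM in 4-OHT cells against 9.11, and Mcpt4, at 0.664 against 1.61, likewise fell and stand above the other control, at 2.51 and 0.271 FPKM. Between Ctsg and Gzmc lie Gzme, Gzmd, Gzmg, Gzmn and Gzmf, whose highest value in any column was 0.378 FPKM. The run thus holds low granzyme genes between Ctsg on one side and Gzmb on the other. Shared sequence makes several of these values uncertain: 96 of 1055 stretches of 36 bases of Cma1 and 307 of 929 of Gzmd occur in other genes, against 0 of 998 for Mcpt8. The flanking genes Khnyn, at a log2 fold of 0.31 with CBD and 0.30 with 4-OHT, and Sdr39u1, at 0.59 and −0.04, passed the test in 1 case only, the rise of Khnyn with 4-OHT.

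**Figure D3:**
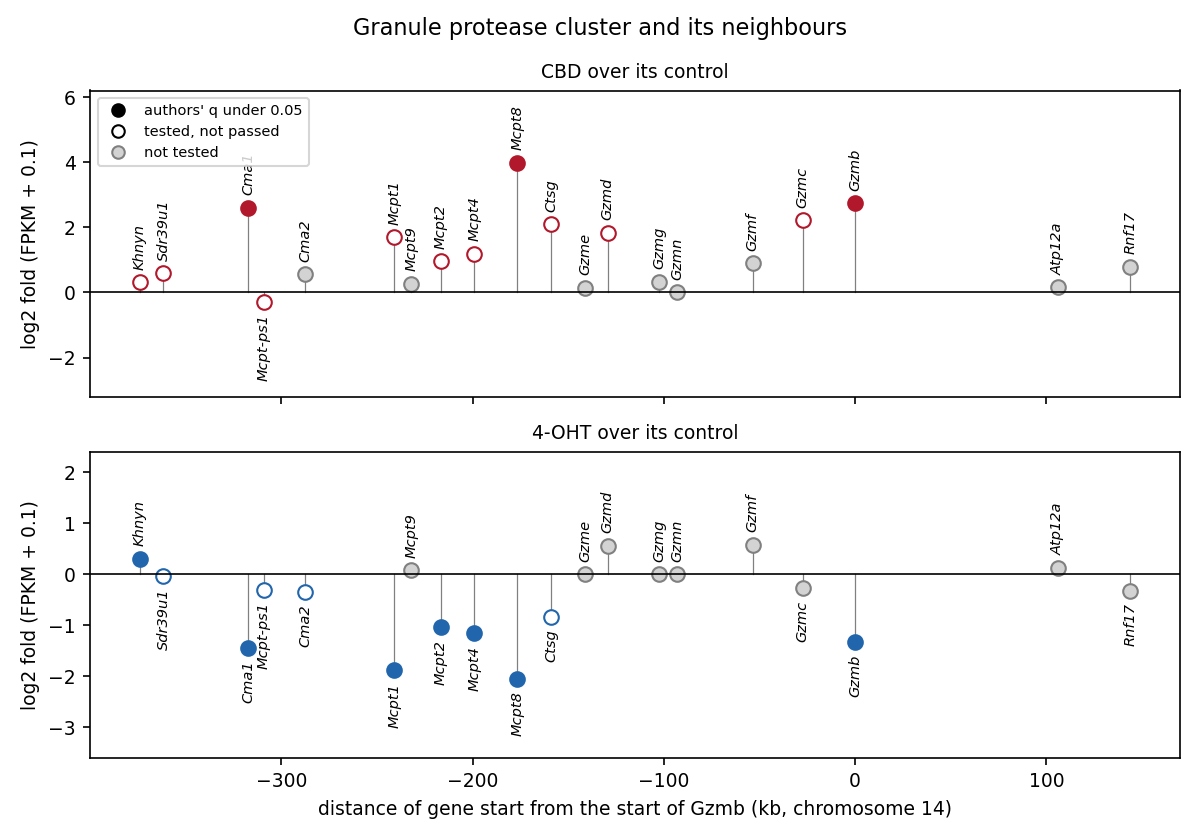
Log2 folds (FPKM + 0.1; y axis) of the 16 genes from Cma1 to Gzmb and 2 neighbours on each side, against the distance of each gene's start from that of Gzmb in kb, with CBD above and 4-OHT below. Filled points have a q under 0.05, open points were tested and did not pass, and grey points were not tested. With 4-OHT all 9 tested genes of the run lie below 0, and with CBD 9 of 10 lie above. Against the other table's control, not drawn, Mcpt1, Mcpt2 and Mcpt4 lie below 0 with CBD and above 0 with 4-OHT.

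Likeness of pattern was measured over the 4 columns as the distance between log2 profiles centred on their own mean, among 10007 genes tested in both tables at a mean of 1 FPKM or more. The gene nearest to Gzmb was Cma1, at a distance of 0.127, followed by Phyhip at 0.352 and the IgE receptor chain gene Fcer1a at 0.371. The genes nearest to Ctsg were Plac8 at 0.179, Fxyd5 at 0.411 and the listed microRNA gene Mir715 at 0.499. The genes nearest to Nkg7 were Tmem38a at 0.0518, Psd at 0.152 and Nagk at 0.191. These are descriptions over 4 pooled values.

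Among 20 genes of protease maturation, inhibition and storage, 9 of 17 tested rose with CBD and 0 fell (13 and 0 at an unadjusted Cuffdiff p under 0.05), with a median log2 fold of 1.39, beside a median of 0.29 and 18.4% that rose among all tested genes. Serpinb1a, an inhibitor of elastase, proteinase 3 and cathepsin G, rose to 205 FPKM in CBD cells, against 49.3 in their control (log2 fold 2.06, q = 2.23e-13 in the authors' deposited table). Slpi, which inhibits elastase and cathepsin G, rose to 2.46 FPKM, against 0.168. The lysosomal protease gene Ctsl rose to 5.13 FPKM, against 1.17, and Ctsw, a cathepsin of NK and cytotoxic T cells, to 3.77, against 0.547. Serpinb9, an inhibitor of granzyme B named after its values were seen, rose to 8.97 FPKM in CBD cells, against 3.24 in their control. The processing protease Ctsc, cathepsin C, was at 112 FPKM in CBD cells and 89.6 in their control, and the storage proteoglycan serglycin (Srgn) at 2705 and 1056. Neither passed with CBD (q = 0.365 and q = 0.119 in the authors' deposited table).

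With 4-OHT 5 of 14 tested genes of that list rose and 1 fell, at a median log2 fold of 0.12. Over all tested genes 27.2% rose and 16.9% fell with 4-OHT, and 13.9% rose against both controls. Of the 5, 2 also exceeded the other table's control: Serpinb6b, a serpin of the granule protease inhibitor family, at 10.66 FPKM in 4-OHT cells against 6.74 in their control, and Serpinb6a, at 3.16 against 2.21. Srgn rose to 671 FPKM, against 569, and Serpina3g to 13.3, against 11.2, but both lay below the other table's control, at 1056 and 17.04 FPKM. Serpinb1a was at 8.05 FPKM in 4-OHT cells and 8.07 in their control, below both columns of the CBD table.

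Of 20 other azurophil granule and promyelocyte genes, 15 were tested with CBD. Of these 5 rose and 1 fell, at a median log2 fold of 1.19, where 18.4% of all tested genes rose and 7.74% fell. Cst7, Srgn, Serpinb1a, Ctsc and Calr stand in both of these lists, so their counts are not separate. Cd63, a tetraspanin of granule membranes, rose to 908 FPKM in CBD cells, against 125 in their control (the authors' deposited table lists q as 0). Plac8, a small cysteine-rich protein of myeloid cells, rose to 189 FPKM, against 41.6. Cst7, cystatin F, an inhibitor of cathepsin C, rose to 199 FPKM, against 87.3. With 4-OHT 3 of 13 tested rose and 3 fell, of which 0 of the 3 and 1 of the 3 also held against the other table's control. Over all tested genes 27.2% rose and 16.9% fell with 4-OHT, and 13.9% and 5.89% did so against both controls. Plac8 fell to 11.04 FPKM in 4-OHT cells, against 18.02 in their control, and Cd63 to 200.3, against 275. Of these, Plac8 also lay below the other table's control and Cd63 did not. Of 20 specific and gelatinase granule genes, made later in neutrophil development, 18 stood under 1 FPKM in CBD cells and 4 were tested. The 2 that rose were Mcpt8, described above as a basophil protease, and Cyba, the small subunit of cytochrome b558, at 338 FPKM in CBD cells against 164 in their control. With 4-OHT 2 of that list were tested, Cyba rose (96.9 FPKM, against 66.5) and Mcpt8 fell. Cyba lay below the other table's control, at 164 FPKM (log2 ratio −0.75), so its direction turns with the control, and that of Mcpt8 does not.

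For the machinery that moves and fuses granules, 6 of 18 tested genes rose with CBD and 1 fell, at a median log2 fold of 0.39. Cd63, described above with the azurophil genes, stands in this list too. Its rise with CBD and its fall with 4-OHT are thus counted in both lists. Over all tested genes 18.4% rose and 7.74% fell with CBD. Sytl3, a Rab27 effector, rose to 14.8 FPKM in CBD cells, against 2.36 in their control (log2 fold 2.60, q = 1.29e-09 in the authors' deposited table). The fusion proteins Vamp8, at 414 FPKM against 224, and Snap23, at 144 against 84.5, rose by less. Unc13d, Stxbp2 and Rab27a, whose loss blocks granule release, did not pass with CBD, at log2 folds of −0.14, 0.11 and 0.26. With 4-OHT 7 of 17 rose and 3 fell, at a median log2 fold of 0.06, where 27.2% of all tested genes rose and 16.9% fell. Stxbp2 rose to 54.5 FPKM in 4-OHT cells, against 36.97 in their control, and Rab27a to 9.27, against 7.34. Of the 7, 2 also exceeded the other table's control, Stxbp2 among them and Rab27a not, and 13.9% of all tested genes rose against both controls.

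**Figure D4:**
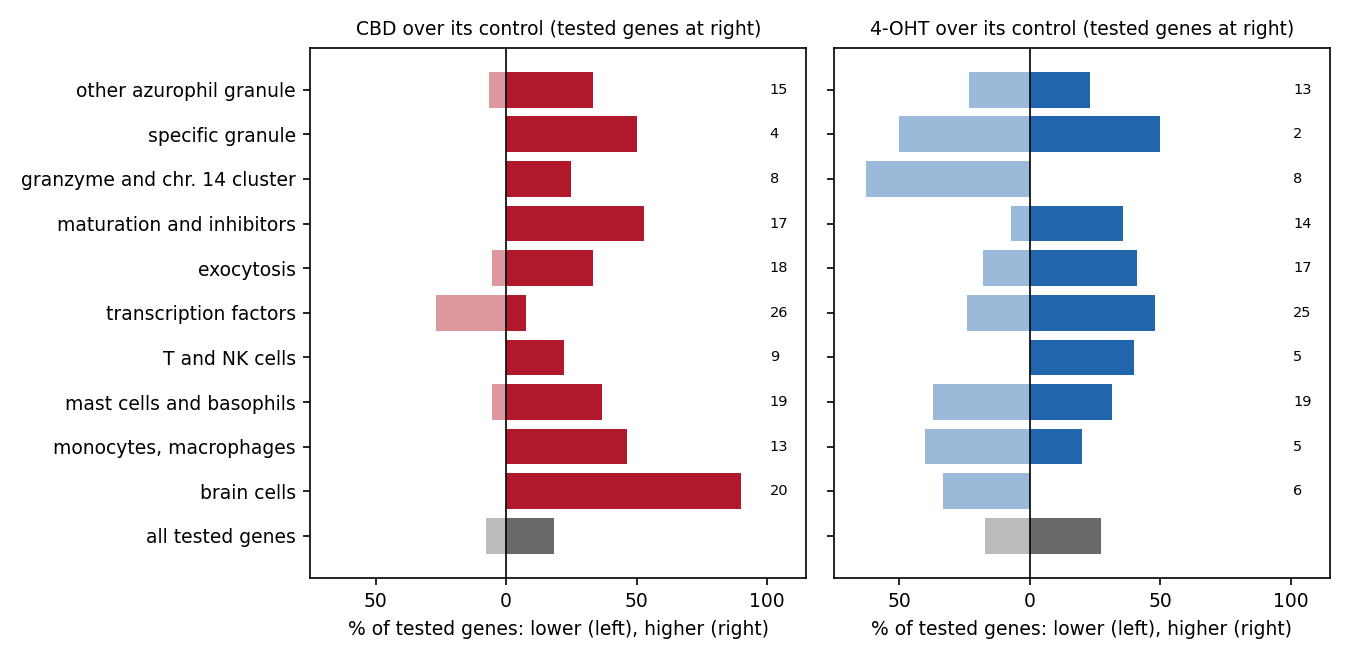
Percent of the tested genes of each list that rose (right of 0) or fell (left of 0) with CBD and with 4-OHT, with the number tested beside each bar and all tested genes in grey. With CBD the granule lists lie mostly to the right, as do brain cell markers, at 18 of 20.

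Of 32 transcription factors of granule genes, 26 were tested with CBD, of which 2 rose and 7 fell (median log2 fold −0.34). Over all tested genes 18.4% rose and 7.74% fell with CBD. Gfi1, a repressor needed for neutrophil development, rose to 3.53 FPKM in CBD cells, against 0.338 in their control, and Id2, of the same family as Id1, to 25.04, against 4.28. Gata3 fell to 5.17 FPKM in CBD cells, against 14.03 in their control, and Runx3, a factor of cytotoxic T cells, to 6.90, against 16.5. With 4-OHT 12 of 25 rose and 6 fell (median log2 fold 0.10), where 27.2% of all tested genes rose and 16.9% fell. Bhlhe40 rose to 39.2 FPKM in 4-OHT cells, against 11.6 in their control, Irf1 to 2.99, against 1.67, and Eomes, a factor of NK and T cells, to 2.22, against 1.35. Of the 12, 2 also exceeded the other table's control, beside 13.9% of all tested genes that rose against both, and Eomes is 1 of them. Bhlhe40 and Irf1 lay below that control, at log2 ratios of −0.20 and −0.35. Of the 6 that fell, 4 also lay below it, beside 5.89% of all tested genes that fell against both. Id1, the gene that 4-OHT deletes here, is among the 6 and among the 4. Cebpa and Cebpe, which drive granulocyte development and were named after their values were seen, stood at 0.349 and 0 FPKM in CBD cells, and the highest value of either in the other columns was 0.0323 FPKM. Not all myeloid factors were that low. Cebpb was at 13.99 FPKM in CBD cells, against 13.02 in their control, and fell to 2.31 in 4-OHT cells, against 3.46 in theirs. Sfpi1 stood between 28.6 and 51.3 FPKM in the 4 columns. Gata1 and Gata2, factors of mast cell, basophil and erythroid precursors, lay between 139 and 232 FPKM and between 51.3 and 113 FPKM.

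Markers of other cell types that make these proteins were set beside them. Among 23 T and NK cell markers, 17 stood under 1 FPKM in CBD cells and 19 in their control, and 20 and 20 in 4-OHT cells and theirs. Cd3e, Klrb1c, Klrk1, Ifng and Xcl1 are listed at 0 in all 4 columns. Other markers of the list were expressed. Cd247 was at 6.55 FPKM in CBD cells, against 14.96 in their control, and did not pass (q = 0.0584 in the authors' deposited table). In 4-OHT cells Cd247 was at 17.96 FPKM, against 15.28 in their control. Lck stood between 1.71 and 2.95 FPKM in the 4 columns. The list summed to 29.9 FPKM in CBD cells, against 21.9 in their control, and to 23.6 in 4-OHT cells, against 19.8. Of 9 tested with CBD 2 rose, Thy1, which neurons also make, and Il2rb, named after its values were seen, at 0.372 FPKM in CBD cells against 0.0266. Of 5 tested with 4-OHT 2 rose, Eomes and Cd247. Mast cell and basophil markers summed to 2561 FPKM in CBD cells, against 1231 in their control, where 7 of 19 tested rose and 1 fell, and to 896 in 4-OHT cells, against 969, where 6 of 19 rose and 7 fell. Of these, 1 of the 6 and 4 of the 7 also held against the other table's control. Beside both lists, 18.4% of all tested genes rose and 7.74% fell with CBD, and 27.2% rose and 16.9% fell with 4-OHT. Against both controls 13.9% of all tested genes rose and 5.89% fell with 4-OHT. Cpa3, the mast cell carboxypeptidase, was at 658 FPKM in CBD cells, against 71.9, and at 48.2 in 4-OHT cells, against 148. Hdc, another marker of that list, went the other way in both comparisons. It fell to 101.7 FPKM in CBD cells, against 294, and rose to 159.6 in 4-OHT cells, against 128. That rise of Hdc did not hold against the other table's control. Cma1 and Mcpt8 stand both in this list and in the chromosome 14 run, so those counts are not separate. The part of T, NK or mast cells in the results on Gzmb, Nkg7 and Ctsg was not tested.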

How the data were processed

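RNA had been extracted with a Qiagen RNeasy Plus mini kit and libraries made by standard Illumina protocols, per the labels. Reads were aligned with Bowtie 0.12.2 to mm9 and groups compared with Cuffdiff, per the submitters' processing notes. Its version and settings, the strand handling and the annotation were not given in the sources used here. The authors' deposited FPKM values are 1 per group and table. The authors' deposited tables also hold p-value and q-value columns, and a log2 column that was not used. Which control samples stand behind each control column is not stated in the column names: of the 2 control samples, 1 is described with the comparison to CBD and 1 with that to 4-OHT.

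From these values, log2 folds were computed with a pseudocount of 0.1 FPKM (Python 3.11.15, pandas 2.3.3), and a gene counted as changed at a deposited q under 0.05. No test was added, because the tables hold no values per sample. The rules for named genes were the 9 members, up to 4 changed non-members with the largest log2 fold from each of 15 gene lists at a mean of 1 FPKM or more, and the 3 genes nearest in profile to each member at 1 FPKM or more. Any other gene in the text was chosen with its values in view. The members and lists were chosen with earlier results of these data known, so their counts are descriptions. Older symbols were matched through RefSeq synonyms. Promoter windows are from RefSeq (GRCm38.p6) and matched all 9 members, and transcript lengths and shared 36-base stretches are from GENCODE vM21. Gene positions are those of the tables in mm9, with 1 added to each start. Computations were tested on simulated data.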

Additional observations from a re-analysis of the deposited data

How the results depend on the processing

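The tables hold 1 value per group, so leaving out a replicate was not run, and no SD or interval can be given. No paired analysis was possible because the columns carry no replicate numbers. The counts of members that rose or fell with CBD (2 and 0) and the counts of genes of the chromosome 14 run with CBD (3 and 0) did not move at a q under 0.01, at a mean of 1 FPKM or more, at a minimum of 2-fold, or, in 2 settings added after the data were seen, at 1 FPKM or more in both controls or against the other table's control as well. With 4-OHT the count of members that rose, 1, became 0 at a minimum of 2-fold and 0 against the other table's control as well, because Nkg7 is at a log2 fold of 0.53 and, against the other control, −0.33. The count of genes of the run that fell with 4-OHT, 6, became 3 against the other table's control as well. Of 35 log2 folds of members under alternatives, 27 stayed within 1.5 times of the linear treated-to-control ratio, 7 moved by more with the sign kept, and 1 (Nkg7 with 4-OHT, above) changed sign. Removing the trend of folds with transcript length, which put short transcripts higher in the CBD column, took the log2 folds with CBD of Gzmb, Nkg7 and Ctsg to 2.46, 1.48 and 1.66. Every setting for counts kept only a part of the genes called at a q under 0.05. So a count could stay or fall but not rise, and a count of 0, also among members and the run, could not move. Of 260 counts over the gene lists, 196 stayed within 1.5 times, those fixed at 0 among them. The cause of these shifts was not tested.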

Other observations

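Some lists set beside the granule genes were not described above. Beside them, 18.4% of all tested genes rose and 7.74% fell with CBD, and 27.2% rose and 16.9% fell with 4-OHT. Against both controls 18.1% rose and 7.23% fell with CBD, and 13.9% rose and 5.89% fell with 4-OHT. Of 14 tested erythroid markers 3 rose and 5 fell with CBD, led by Hba-a2, an alpha globin whose near-identical copy shares reads, at 246 FPKM in CBD cells against 34.9 in their control. Of the 3 rises with CBD only that of Hba-a2 also held against the other table's control, and the 5 falls all did. With 4-OHT 1 of 14 rose and 6 fell, among them Rhag, at 14.4 FPKM in 4-OHT cells against 23.2 in their control. Only 1 of those 6 also lay below the other table's control, and Rhag did not (5.94 FPKM there, log2 ratio 1.27). Of 11 tested blast and progenitor markers 2 rose and 3 fell with CBD, of which 2 and 2 also held against the other table's control. Ly6a, the stem cell antigen Sca-1, was at 21.2 FPKM in CBD cells against 2.24 in their control. Ly6a fell with 4-OHT, to 1.55 FPKM against 5.65 in their control, and 2 of 8 tested markers of that list rose and 4 fell, of which 0 of the 2 and 3 of the 4, Ly6a among them, also held against the other table's control. Of 5 tested B cell and plasmacytoid dendritic cell markers 2 rose with CBD, among them Bst2 (142 FPKM in CBD cells, against 61.99 in their control), and of 3 tested with 4-OHT 2 rose, 0 of them against the other table's control as well.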
